A study of Mus musculus with 9 samples.

Results

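The proteasome subunit genes of mouse substantia nigra are described here in bulk RNA sequencing of 9 libraries. The genes were selected on their annotation and on their measured level: an Ensembl identifier, the KEGG pathway Proteasome, a symbol beginning with Psm, and a mean of at least 0.5 FPKM over the 9 libraries (fragments per kilobase of transcript and per mega, M, of mapped fragments, so a level scaled by transcript length). Of 27339 genes in the table, 43 met the annotation terms and 40 of these also met the level, so 40 genes are described. They divide into 16 core genes (Psma and Psmb), 18 cap genes (Psmc and Psmd), 5 activator genes (Psme) and 1 inhibitor gene (Psmf1). The label fits the annotation with exceptions by role: Psmd9 is known as an assembly chaperone and not as a lasting part of the particle, and Psmf1 binds the core from outside. The level term lay far below nearly all of them. The lowest gene inside was Psmb8 at 1.54 FPKM, and the 3 genes outside were Psmb9 at 0.481, Psma8 at 0.334 and Psmb11 at 0.00646 FPKM.

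The tissue was labelled substantia nigra pars compacta, the midbrain region that holds the dopamine neurons lost in Parkinson's disease. Libraries fell into 3 groups of 3: a control group (Ctrl), a group treated with MPTP, and a group treated with MPTP and fed a ketogenic diet of medium-chain triglycerides (MPTP + MCT-KD, called the diet group). MPTP is a toxin whose oxidised product enters dopamine neurons and blocks complex I of the respiratory chain. All the diet libraries also carried MPTP, and a diet group without MPTP was not analysed here. The labels name no strain, age, sex, dose or duration. Nothing in them ties a library to 1 animal, so every p-value here reflects spread among libraries, which may be technical.

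The proteasome is the large protease that breaks down proteins tagged with ubiquitin. Its core is a barrel of stacked rings, with alpha subunits (Psma genes) that gate the entrance and beta subunits (Psmb genes) that include the cutting sites. A cap of ATPases (Psmc genes), which unfold and thread the substrate, and non-ATPase subunits (Psmd genes), which recognise and strip ubiquitin, sits on the ends of the barrel. Activator proteins (Psme genes) can take the place of the cap. In Parkinson's disease the proteasome has long been studied because ubiquitin-bearing protein aggregates build up in the surviving dopamine neurons.

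The libraries held between 33.2 and 40.0 M counts each, of which the 40 genes took 0.276% to 0.299%. Th, the enzyme that makes the dopamine precursor, and Slc6a3, the dopamine transporter, were present in every library. Th had means of 87.0 ± 19.9 CPM in Ctrl, 62.4 ± 6.49 in MPTP and 61.9 ± 15.2 in the diet group (counts per M, SD, n = 3). All 9 dopamine neuron markers had a lower fitted mean in both MPTP groups than in Ctrl (median log2 fold change -0.35 in each), and none passed the threshold of adjusted p = 0.05 in edgeR's quasi-likelihood test, while 3 and 2 of the 9 had an unadjusted p under 0.05, beside 5.36% and 6.73% of all genes tested. Their summed level was 724 to 862 CPM in Ctrl, 606 to 693 in MPTP and 577 to 708 in the diet group. All 6 oligodendrocyte markers were higher in both, with sums of 9871 to 12056, 10460 to 12831 and 12608 to 13876 CPM. All 6 meningeal fibroblast markers were lower in MPTP than in Ctrl (median log2 fold change -0.53) and higher in the diet group than in MPTP (0.71), with sums of 414 to 1166 CPM in Ctrl, 355 to 632 in MPTP and 420 to 1135 in the diet group. Of the microglia markers 5 of 6 were higher in both MPTP groups than in Ctrl, with sums of 148 to 175, 172 to 184 and 178 to 190 CPM, and all 4 thalamic neuron markers were higher in MPTP than in Ctrl, with sums of 675 to 900 and 757.6 to 1140.2 CPM. The 5 choroid plexus markers summed to 1199 CPM in Ctrl library 3 and to 15.6 to 91.2 CPM elsewhere. No marker of these lists passed the threshold in edgeR's test, and none was at 0 in any library. In bulk tissue, fewer cells of a type and less RNA per cell cannot be told apart, and the part of cell makeup in the values below was not tested.

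The cap ATPase gene Psmc5 had the highest FPKM of the 40, at 125.5 ± 6.45 (SD over 9 libraries). It was followed by Psmc1, another ATPase, at 96.3 ± 4.34 and by the core gene Psmb4 at 85.8 ± 5.12 FPKM. This ranking depends on the length scale. Per kilobase of coding sequence, Psme3 at 156 and Psmb1 at 146 CPM stood above Psmc5 at 144. On that scale Psme4, at 9.17, stood below Psmd9, at 28.9. In FPKM the lowest were Psmb8 at 1.54 ± 0.187, Psme2b at 6.56 ± 1.77 and Psmd9 at 7.03 ± 0.724. Apart from these, the subunits that share a ring, and so are built in equal numbers into each particle, lay within a few-fold of each other.

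**Figure D1:**
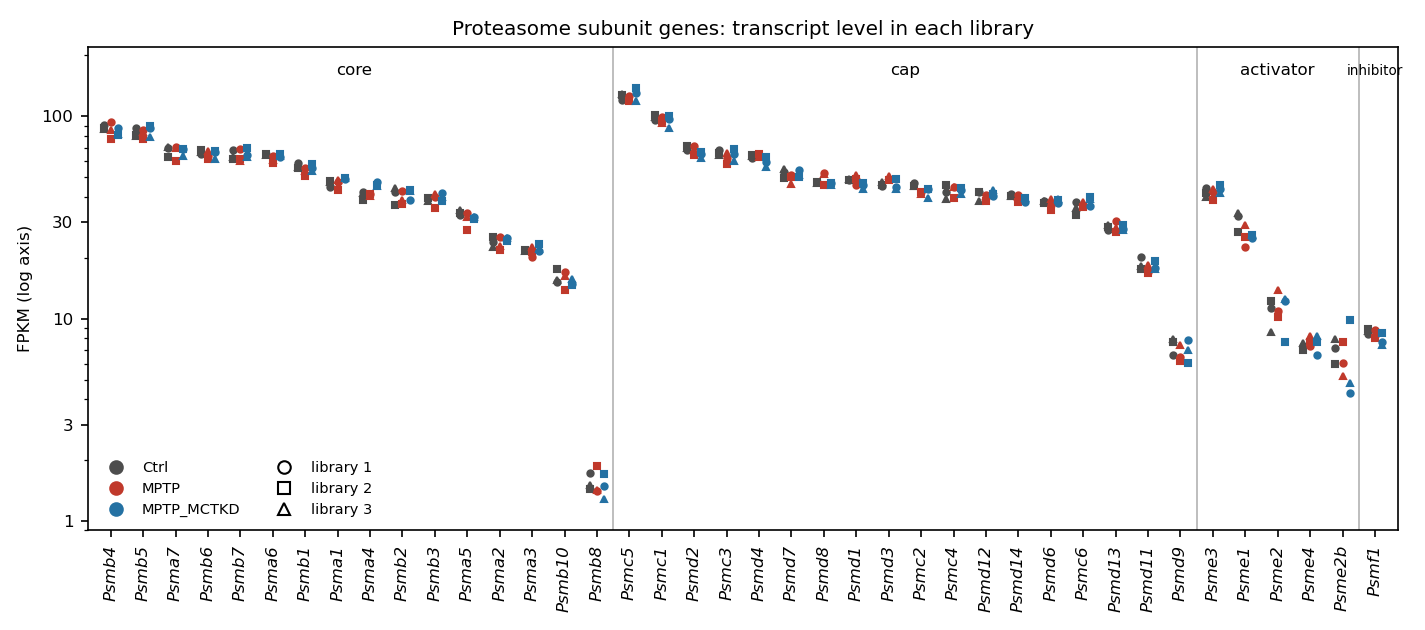
Level of each of the 40 genes in each library, in FPKM on a log axis, with colour for the group and symbol for the library, ordered within core, cap, activator and inhibitor by mean level. The points of a gene lie close together in all 3 groups, while genes range from Psmb8 at 1.54 to Psmc5 at 125.5 FPKM on average.

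In the alpha ring, Psma7 stood highest at 67.3 FPKM and Psma3 lowest at 21.9, a ratio of 3.08. Between them the order was Psma6, Psma1, Psma4, Psma5 and Psma2. Of the 21 pairs of alpha genes, 20 kept the same order in all 9 libraries. Neighbours whose values over the libraries overlapped were Psma7 with Psma6, Psma1 with Psma4, and Psma2 with Psma3. FPKM depends on the transcript length the authors' counting assumed, and this differed widely: counts and FPKM together imply 3.06 kb for Psma2 and 2.34 kb for Psma3, against 0.966 to 1.30 kb for the other 5 alpha genes, although the 7 coding sequences measure 702 to 789 bases. Per kilobase of coding sequence the alpha ring spanned a ratio of only 1.82, and Psma2 then stood highest, at 105 CPM per kilobase, with Psma5 lowest at 57.8. The places of Psma2 and Psma3 at the bottom of the ring therefore hold for one length scale and not for the other.

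Among the 7 constitutive beta genes, levels ran from Psmb4 at 85.8 to Psmb3 at 39.3 FPKM, a ratio of 2.18, and 18 of 21 pairs kept their order in all libraries. The overlapping neighbours were Psmb4 with Psmb5, Psmb6 with Psmb7, and Psmb2 with Psmb3. Per kilobase of coding sequence the ratio was 2.82, with Psmb1 highest at 146 and Psmb3 again lowest at 51.7 CPM per kilobase. The constitutive catalytic subunits are Psmb5, with chymotrypsin-like activity, Psmb6, with caspase-like activity, and Psmb7, with trypsin-like activity. They had means of 83.4 ± 4.42, 65.3 ± 2.65 and 64.5 ± 3.57 FPKM over the 9 libraries. Psmb5 measured 83.1, 77.8 and 74.5 CPM in Ctrl, 81.8, 72.9 and 77.6 in MPTP, and 83.7, 85.6 and 75.4 in the diet group. Psmb6 measured 54.8, 58.3 and 55.1, then 54.0, 51.6 and 55.0, then 57.0, 56.9 and 52.1 CPM in the same order. Psmb7 measured 83.6, 75.8 and 76.1, then 85.0, 75.5 and 71.2, then 80.0, 86.0 and 77.9 CPM. The 3 groups overlapped for each of these genes, and so they did for Psmb4, which ranged from 96.1 CPM in MPTP library 2 to 118 in MPTP library 1.

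In the ATPase ring Psmc5 exceeded Psmc6, the lowest, by a ratio of 3.42, and 14 of 15 pairs kept their order. Psmc1 measured 161, 171 and 163 CPM in Ctrl, 169, 158 and 151 in MPTP, and 164, 169 and 148 in the diet group, with overlap. Psmc5 and Psmc1 remained on top per kilobase of coding sequence, at 144 and 122 CPM per kilobase, where the ratio of the ring was 2.77 and Psmc4 was lowest at 51.8. The 12 Psmd genes were spread more widely in FPKM, chiefly through Psmd9, the lowest. Psmd2, a large cap subunit that docks ubiquitin carriers, led at 67.5 FPKM. It stood 9.59 times above the chaperone Psmd9, and 58 of 66 pairs kept their order. Psmd9 itself measured 18.2, 21.2 and 21.5 CPM in Ctrl, 18, 17 and 19.5 in MPTP, and 21.8, 16.7 and 19.4 in the diet group, with overlap of all groups. Next above it came Psmd11, a lid subunit, at 18.1 FPKM. Per kilobase of coding sequence the ratio was 3.07, with Psmd7 on top at 88.8, Psmd9 still lowest at 28.9 and Psmd11 next at 40.9.

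The interferon-inducible beta subunits, which replace the constitutive catalytic ones to form the immunoproteasome, were scarce or partial in this tissue. Psmb8, the counterpart of Psmb5, had 78 to 119 counts per library, and its FPKM was 0.0163 to 0.0243 of that of Psmb5. Psmb9, the counterpart of Psmb6, had 11 to 36 counts, and its FPKM was 0.00387 to 0.0114 of that of Psmb6. Psmb10, the counterpart of Psmb7, was far more abundant, at 15.7 ± 1.18 FPKM and 0.211 to 0.288 of Psmb7. Together the inducible genes made up 7.05% to 8.42% of the summed FPKM of the 6 catalytic genes, nearly all of it Psmb10. That share averaged 7.81% ± 0.551 in Ctrl, 7.85% ± 0.281 in MPTP and 7.34% ± 0.474 in the diet group (SD, n = 3). The groups overlapped, at 7.36% to 8.42% in Ctrl, 7.53% to 8.07% in MPTP and 7.05% to 7.89% in the diet group.

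The 3 inducible genes had these values by library. Psmb8 measured 2.97, 2.52 and 2.58 CPM in Ctrl, 2.46, 3.23 and 2.42 in MPTP, and 2.62, 2.99 and 2.22 in the diet group. Psmb10 measured 21.1, 24.7 and 21.1 CPM in Ctrl, 23.8, 19.1 and 22 in MPTP, and 20.9, 20.5 and 22 in the diet group. For both genes the 3 groups overlapped throughout. Psmb9, outside the level term and not among the genes tested, stood at 0.604, 0.294 and 0.332 FPKM in Ctrl, 0.673, 0.566 and 0.454 in MPTP, and 0.259, 0.763 and 0.381 in the diet group. Its groups overlapped too, and at so few counts no difference of moderate size could have been seen. Psma8, which replaces Psma7 in the testis, was listed between 0 and 0.619 FPKM, and the thymus subunit Psmb11 between 0 and 0.0265.

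Activator genes ranged widely. Psme3, which forms a nuclear activator, was highest at 42.5 ± 2.29 FPKM. Psme1 and Psme2, whose products assemble into one mixed ring and are induced by interferon, had 27.4 ± 3.54 and 11.1 ± 1.98 FPKM, and Psme4, a single-chain nuclear activator, had 7.50 ± 0.520. Psme4 measured 49.7, 48.0 and 50.4 CPM in Ctrl, 50.2, 49.8 and 53.3 in MPTP, and 45.6, 52.7 and 56.7 in the diet group, the widest spread being within the diet group. Psmf1, the inhibitor, stood at 8.33 ± 0.520 FPKM.

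Psme2 and Psme2b need to be read together. Psme2 lies on chromosome 14 and Psme2b on chromosome 11, and their coding sequences, 717 bases each, are 99.3% identical with 5 differing bases. The stretch that holds 3 of those bases (coding positions 484 to 543, taken from GENCODE M21 on GRCm38) is shown because it makes plain how few reads can tell the copies apart; capitals mark the differing bases.
Psme2 (chr14:55587441-55591113, minus strand): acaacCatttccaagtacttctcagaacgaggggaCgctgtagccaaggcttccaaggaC
Psme2b (chr11:48945354-48946190, minus strand): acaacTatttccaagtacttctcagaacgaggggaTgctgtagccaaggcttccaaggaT
The counts moved between the copies in opposite ways. In diet library 2, Psme2 was at its lowest, 7.84 CPM, and Psme2b at its highest, 8.76, while in diet libraries 1 and 3 Psme2 read 12.3 and 12.5 and Psme2b 3.86 and 4.30. Over the 9 libraries the coefficient of variation was 16.2% for Psme2 and 26.8% for Psme2b. Their sum was steady, from 15.4 to 17.7 CPM, with means of 16.8 ± 1.21 in Ctrl, 16.9 ± 0.558 in MPTP and 16.5 ± 0.322 in the diet group. The level of the pair is therefore better measured than that of either copy.

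Other members share sequence with copies as well. For 16 of the 40, a copy elsewhere in the genome matched at least 90% of the bases over at least 50% of the coding sequence, 33 copies in all and mostly processed pseudogenes. Besides the Psme2 pair, only Gm4950, a copy of Psmb3, has a row in the table, at 1.12 FPKM against 39.3 for Psmb3. Exons of 6 members overlap a gene on the opposite strand, and whether the counting used strand is not stated in the labels. These pairs are Psmc3 with Slc39a13, Psme1 with Emc9, Psmd13 with Sirt3, Psmb7 with Nek6, Psmd1 with Htr2b, and Psma4 with AY074887. Reads there may be shared, and for Psme1 and Psmd13 the partners had 23.3 and 33.2 FPKM, while AY074887 had only 0.0701. On the same strand, exons of Psme2b overlap 9930111J21Rik1, at 0.535 FPKM, and exons of Psmd1 overlap Gm21972, at 0.115 FPKM.

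Across libraries the members varied less than the genes tested as a whole. The median coefficient of variation of the 40 genes over all 9 libraries was 5.62%, against 8.93% for the 14949 genes tested. Among genes with a mean of at least 5 FPKM the corresponding values were 5.56% for 39 members and 6.57% for 9179 genes. The fitted spread showed no such gap when all members were set beside genes of higher level. For MPTP against Ctrl the median standard error of the log2 fold change was 0.063 for the 40 members. It was 0.061 for the 3560 genes with a mean of at least 20 FPKM. Some of the 40 lay below that level, and a median for only the members above it was not taken. Psmd14, the deubiquitinase that cuts ubiquitin chains off the substrate, varied least, by 3.42%, and lay between 61.4 and 67.6 CPM. Medians by class were 5.97% for core, 4.98% for cap and 12% for activator genes.

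Promoter sequences were read because the best known regulators of these genes are DNA-binding factors. The choice was also made after fitted differences of many members were seen to share a sign in some comparisons below. In each of these comparisons 0 of 40 members were called, and a shared regulator was not tested. Nfe2l1 is the main factor that raises proteasome genes when the proteasome is impaired, and it and its relative Nfe2l2 bind antioxidant response elements. RefSeq promoters on GRCm38 (250 bases before to 50 after the start) matched 34 of the 40 genes, with 37 promoters. The RefSeq start lay within 100 bases of the start of a coding transcript of the gene in GENCODE M21 for 34 of the 37, and up to 1464 bases away for the others. On both strands 10 motifs were searched. The core of the antioxidant response element, TGACNNNGC, was found in 6 of 37 member promoters (16.2%), against 12.4% of 32851 promoters in all and 14.0% of the 13888 promoters of tested genes. The genes were Psmb5, Psmb6, Psmc6, Psmd12, Psmd9 and Psme4. The share was thus near the background for this window. The largest gap, singled out after all 10 shares had been seen, was for TTCCGG, the binding core of ETS factors with a CpG: 18 of 37 promoters (48.6%) held it, against 14.9% of all and 24.6% of those of tested genes. It was in 10 of 15 cap genes and in 4 of 13 core genes with a promoter. TTCCGG is contained in no other motif searched. It overlaps the plain ETS core GGAAG read on the other strand, so the same site can match both. The core of the interferon-stimulated response element was in 4 of 37 (10.8%), against 3.44% and 2.88%: Psmb3, Psmd4, Psmd9 and Psme1. CCAAT was in 29.7%, against 37.4% and 37.1%, and TATAAA in 10.8%, against 13.6% and 7.03%. The looser TGANNNNGC, which every TGACNNNGC also meets, was in 54.1%, against 41.3% and 42.5%. GGAAG, the plain ETS core, was in 89.2%, against 71.4% and 74.5%, and the GC box GGGCGG in 54.1%, against 35.7% and 61.3%. The palindrome bound by NRF1 (the factor encoded by Nrf1, not Nfe2l1) was in 16.2%, against 4.6% and 9.09%, and TGACGT in 10.8%, against 7.51% and 10.8%; TGACGT can overlap the antioxidant element.

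The following windows of 60 bases show these elements (GRCm38, 5′ to 3′ on the gene's strand, capitals marking the motif on either strand). Psmb6 and Psmd9 carry the antioxidant response element core close to the start, Psmb3 the interferon element, and Psmd2 and Psmc6 the ETS core.
Psmb6 (chr11:70525297-70525356, plus strand): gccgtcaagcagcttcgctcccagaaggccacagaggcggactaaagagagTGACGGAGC
Psmd9 (chr5:123228130-123228189, plus strand): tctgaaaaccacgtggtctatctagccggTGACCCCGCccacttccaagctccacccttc
Psmb3 (chr11:97703246-97703305, plus strand): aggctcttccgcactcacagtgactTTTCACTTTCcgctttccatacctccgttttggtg
Psmd2 (chr16:20651592-20651651, plus strand): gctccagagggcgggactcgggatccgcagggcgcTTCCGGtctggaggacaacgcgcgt
Psmc6 (chr14:45329697-45329756, plus strand): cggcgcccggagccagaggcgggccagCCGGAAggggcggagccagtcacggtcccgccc
A match is a run of letters and no measurement of binding.

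The first comparison asked how nigral transcripts differed between mice given MPTP and controls. Most proteasome genes were slightly lower in MPTP: 33 of 40 had a fitted mean below Ctrl and 7 above, with a median log2 fold change of -0.043, or -2.91%. Over all genes tested the median was -0.00092, and 49.6% were above; among the 3560 genes with a mean of at least 20 FPKM, the range of most members, 52.0% were above. By class, 15 of 16 core genes (median -0.038), 14 of 18 cap genes (-0.045) and 3 of 5 activator genes (-0.019) were below Ctrl, and so was Psmf1 (-0.043). All 7 alpha and all 7 constitutive beta genes were among them. No single gene passed. In edgeR's quasi-likelihood test with Benjamini-Hochberg adjustment over 14949 genes, 0 of 40 members were called, against 2 of all genes (0.0134%), and the smallest adjusted p of a member was 0.893. DESeq2 and limma also called 0 members. At an unadjusted p under 0.05 there were 2 members, Psme1 and Psmc2, both lower, which is 5% of 40 beside 5.36% of all genes.

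The libraries of the MPTP group differed among themselves. MPTP library 2 held the lowest value of all 9 libraries for 17 of the 40 genes and for 12 of the 16 core genes, against 8.70% of all genes tested. MPTP library 1 held the highest value for 10 of the 40, against 14.0% of all genes. On the mean log2 level over the 40 genes with the Ctrl mean set to 0, Ctrl libraries lay at 0.019, 0.0014 and -0.020. MPTP libraries lay at 0.0086, -0.088 and -0.045, and diet libraries at -0.011, 0.024 and -0.042. MPTP library 1 thus lay inside the control range, and the other two lay below every control. Without MPTP library 2 the median log2 fold change was -0.012, with 25 genes below and 15 above, and without MPTP library 1 it was -0.079, with 33 below and 5 at an unadjusted p under 0.05 (Psma5, Psma6, Psmb1, Psmb4 and Psmc2). MPTP library 2 also had the fewest counts, 33.2 M, and the lowest share of counts in these genes, 0.276%. The share was 0.299% in diet library 2, which had 33.7 M counts. The summed dopamine markers of MPTP library 2, 693 CPM, were the highest of the MPTP group. Summed meningeal fibroblast markers were 355, 358 and 632 CPM in MPTP libraries 1, 2 and 3, and summed thalamic neuron markers 1140, 897 and 758. Raphe serotonin neuron markers summed to 17.7, 143 and 90.6 CPM in these libraries. Their sums were 40.5, 87.9 and 140 CPM in the Ctrl libraries and 22.1, 170 and 127 in the diet libraries. The part of library size and of these markers in the result was not tested.

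**Figure D2:**
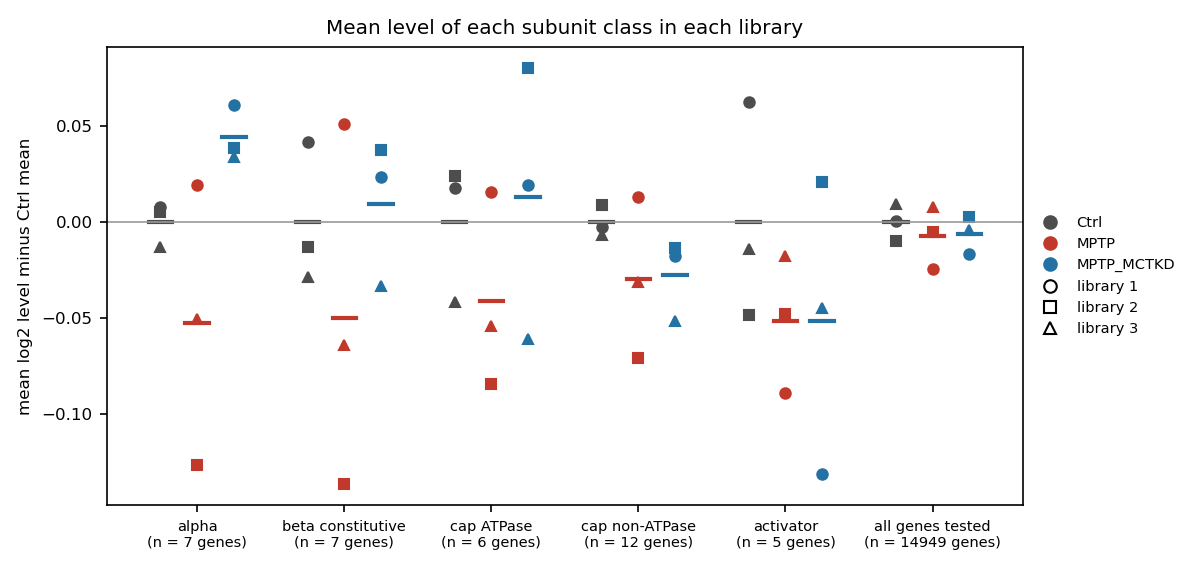
Mean log2 level of each subunit class in each library, with the mean of the 3 Ctrl libraries set to 0; colour gives the group, the symbol the library, and the bar the group mean. In the alpha and constitutive beta rings MPTP library 2 lies lowest, at -0.13 and -0.14, and the 3 diet libraries lie above all Ctrl libraries in the alpha ring only.

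Psme1 showed the largest fitted difference. It measured 36.7, 30.04 and 38.1 CPM in Ctrl and 26.5, 29.1 and 32.8 CPM in MPTP. Ctrl library 2 lay within the MPTP range, so the groups overlapped. The log2 fold change was -0.25 (95% interval -0.46 to -0.031, unadjusted p = 0.0276, adjusted p = 0.893, edgeR), or -15.6%. Its partner Psme2 measured 11.3, 12 and 8.49 CPM in Ctrl and 10.9, 10.4 and 12.8 in MPTP, with overlap (log2 fold change 0.099, interval -0.30 to 0.50). Of the interferon and antigen processing genes as a list, 0 of 13 passed by edgeR and 0 had an unadjusted p under 0.05, with 4 above and a median of -0.015. Of these, Tap1, the antigen peptide transporter, had 0.45 and the interferon factor Irf9 -0.20.

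Psmc2, an ATPase, was the only member of the ring whose groups did not overlap. It measured 88.5, 85.6 and 83.5 CPM in Ctrl and 80.4, 79.8 and 76.0 CPM in MPTP. Every MPTP library lay below every Ctrl library, and the log2 fold change was -0.12 (interval -0.25 to -0.0021, unadjusted p = 0.0467, adjusted p = 0.904, edgeR). The lid subunit Psmd11 was likewise lower without overlap, at 50.3, 49.9 and 51.1 against 56.1, 51.6 and 52.6 CPM in Ctrl (log2 fold change -0.083). Psmd3, also a lid subunit, was higher without overlap, at 112, 109 and 111 against 102, 104 and 105 CPM (log2 fold change 0.088). These 3 were the members without overlap, 7.50% of 40, beside 10.5% of all genes tested.

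Psma6 of the alpha ring had the third smallest p among the lower members, at 71.9, 72.4 and 69.4 CPM in Ctrl and 70.6, 64.7 and 65.3 in MPTP. MPTP library 1 lay within the controls (log2 fold change -0.091, interval -0.21 to 0.025). Psma5 of the same ring, close behind it, measured 42.7, 43.9 and 44.3 CPM in Ctrl and 43.9, 35.9 and 40.2 in MPTP. Only MPTP libraries 2 and 3 lay below the controls (log2 fold change -0.13, interval -0.29 to 0.035). Psmd8, a lid subunit, measured 74.2, 70.4 and 71.1 CPM in Ctrl and 82.8, 71.5 and 78.9 in MPTP, the largest fitted difference upward (log2 fold change 0.11, interval -0.016 to 0.24). MPTP library 2 overlapped the controls here too. Psmc6, with the third smallest p among the higher members, measured 88.4, 76.8 and 81.2 against 86.8, 82.9 and 86.1 CPM, with overlap (log2 fold change 0.054). Of the constitutive catalytic subunits, Psmb5 had a log2 fold change of -0.019, Psmb6 of -0.066 and Psmb7 of -0.023.

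**Figure D3:**
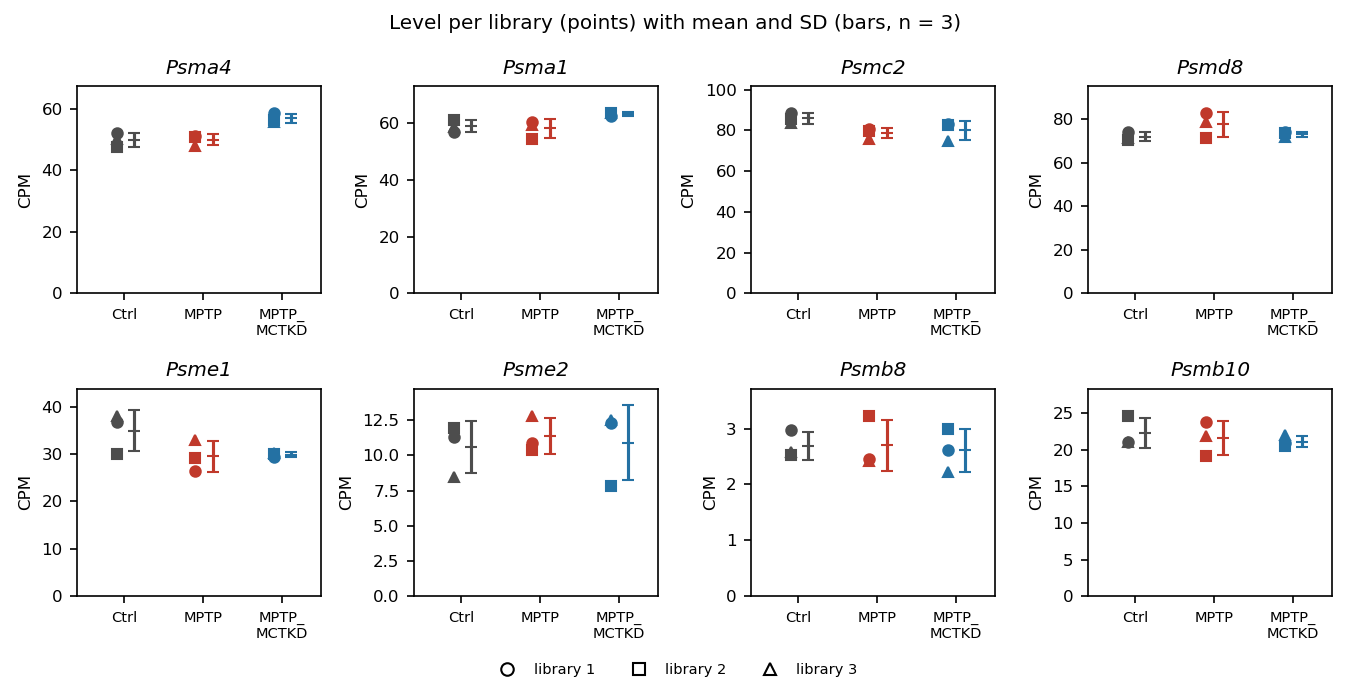
Levels in CPM of 8 genes in each library, with points for libraries and bars for the mean and SD of 3 libraries; every axis starts at 0. Psma4 lies higher in all 3 diet libraries than in the other 6, Psmc2 is lower in both MPTP groups than in every control, and Psme2, Psmb8 and Psmb10 overlap in all groups.

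The second comparison set the diet group against MPTP alone, that is, the diet within mice that all carried MPTP. It shares the MPTP libraries with the first comparison, so a low MPTP library moves both, in opposite directions. Here 29 of 40 members had a higher fitted mean in the diet group, with a median log2 fold change of 0.039, or 2.77%, beside 0.00056 for all genes tested and 0.0093 for those with at least 20 FPKM, of which 55.4% were above. By class, 13 of 16 core genes (median 0.073), 12 of 18 cap genes (0.021) and 4 of 5 activator genes (0.016) were above MPTP. All 7 alpha genes (median 0.10) and all 6 ATPase genes (0.052) were among them, while the 12 Psmd genes split evenly, 6 above and 6 below. Both inducible subunits and Psmf1 were below. By edgeR 0 of 40 members were called, as were 0% of all genes, and the smallest adjusted p of a member was 0.599. DESeq2 and limma also called 0 members. At an unadjusted p under 0.05 there was 1 member, Psma4, 2.50% of 40 beside 7.78% of all genes. Without MPTP library 1 the median was 0.076, with 31 above and 6 at an unadjusted p under 0.05, and without MPTP library 2 it was 0.028, with 24 above.

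Psma4, a subunit of the alpha ring, measured 51.0, 50.9 and 47.8 CPM in MPTP and 58.5, 56.3 and 55.5 CPM in the diet group. All 3 diet libraries lay above all MPTP libraries, and above the Ctrl values of 52.1, 47.5 and 50.1 CPM as well. The log2 fold change was 0.19 (95% interval 0.056 to 0.32, unadjusted p = 0.00885, adjusted p = 0.599, edgeR), or 13.9%. Psma1, another alpha subunit, measured 60.5, 54.5 and 59.5 CPM in MPTP and 62.4, 63.5 and 63.6 in the diet group, again without overlap and above the Ctrl values of 56.9, 61.1 and 58.5 CPM (log2 fold change 0.12, interval -0.0085 to 0.25). These were the 2 members without overlap, 5% of 40, beside 13.7% of all genes.

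Psmc5, the member of highest FPKM, measured 177, 166 and 163 CPM in MPTP and 184, 193 and 168 CPM in the diet group, with overlap, beside 167, 180 and 176 in Ctrl (log2 fold change 0.11, interval -0.019 to 0.24). The 3 members of smallest p among those lower in the diet group were cap subunits. Psmd3 measured 102, 111 and 99.3 CPM in the diet group, with a log2 fold change of -0.086 against MPTP. Psmd8 measured 73.9, 73.5 and 71.8 CPM, inside the control range, with -0.089. Psmd1, a large cap scaffold subunit, measured 152, 161 and 165 CPM in MPTP and 152, 154 and 145 in the diet group (-0.078). All 3 overlapped and none was called.

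Among the catalytic subunits, log2 fold changes were 0.075 for Psmb5, 0.047 for Psmb6, 0.073 for Psmb7, -0.050 for Psmb8 and -0.036 for Psmb10. For the activators they were 0.019 for Psme1, -0.059 for Psme2, 0.099 for Psme3 and 0.016 for Psme4. Psme3 measured 120, 108 and 119 CPM in MPTP and 125, 130 and 118 in the diet group, beside 124, 118 and 110 in Ctrl.

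**Figure D4:**
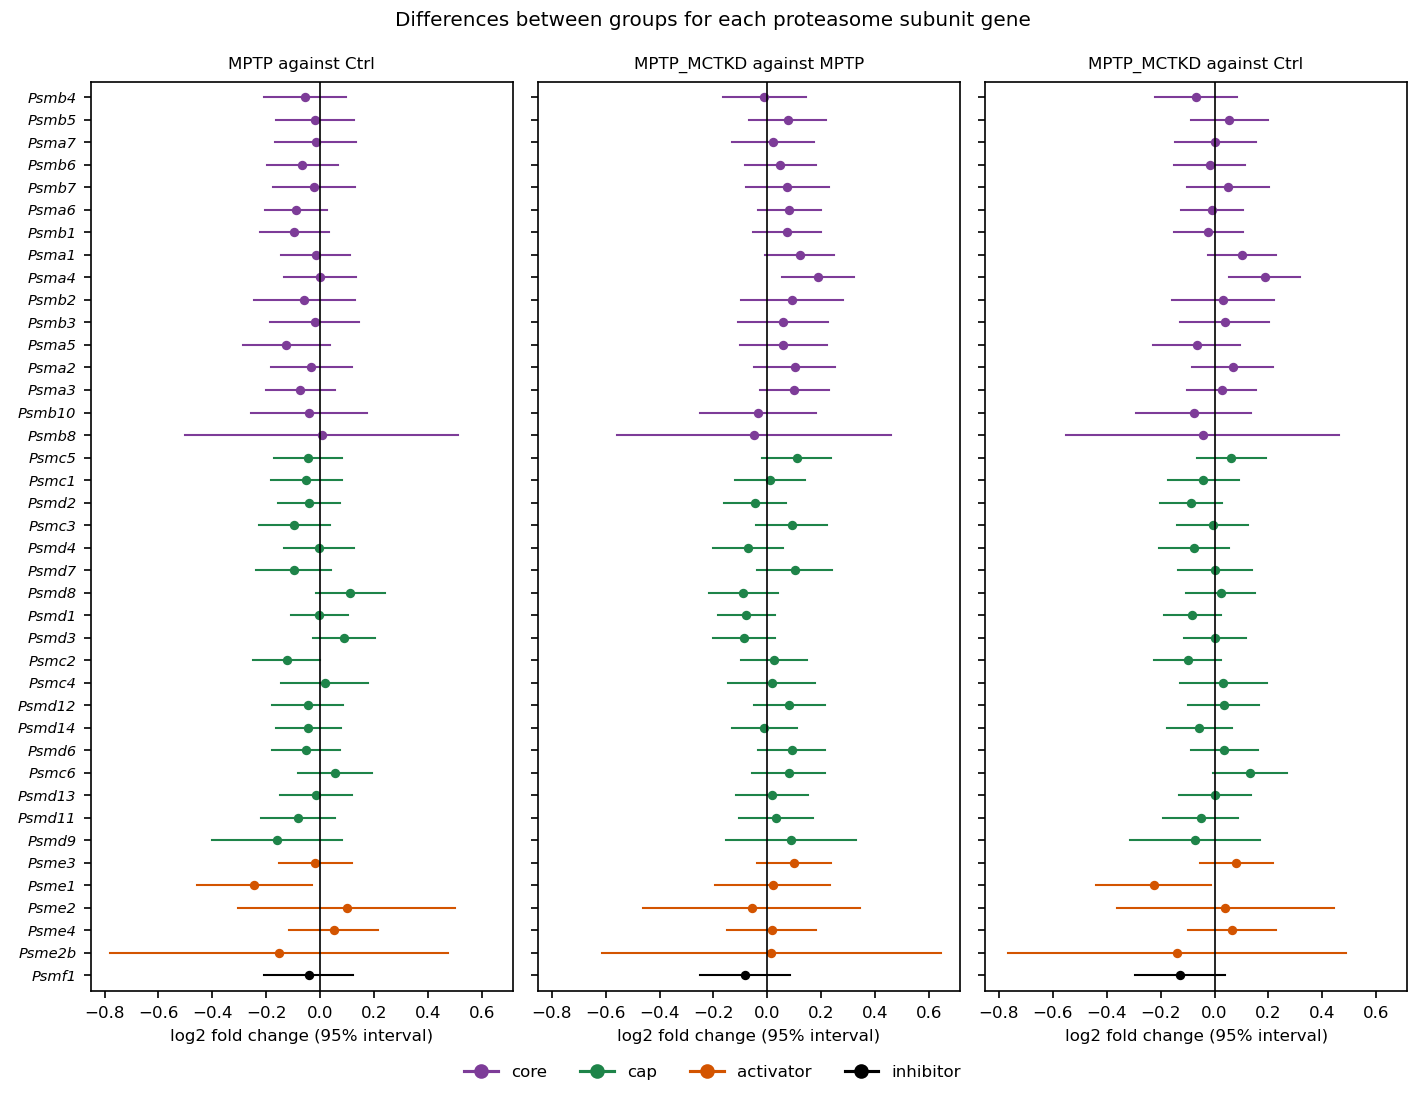
Log2 fold change of each of the 40 genes in the 3 comparisons, from edgeR with all 9 libraries, with points for the estimate and lines for its 95% interval; colour gives the subunit class. Core genes lie mostly left of 0 for MPTP against Ctrl and right of 0 for the diet group against MPTP, and nearly all intervals cross 0, with Psmb8 and Psme2b the widest.

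The third comparison set the diet group against Ctrl and shares libraries with both others. In edgeR's fit over all 9 libraries the members were balanced, with 21 above and 19 below. The median log2 fold change was 0.0013, beside -0.0015 for all genes tested. For genes with at least 20 FPKM it was 0.013, and 57.1% of them were above. Medians were 0.015 for core genes (9 of 16 above), -0.0031 for cap genes (9 of 18) and 0.040 for activator genes (3 of 5). By edgeR 0 of 40 members were called, as were 0% of all genes, and the smallest adjusted p of a member was 0.740. DESeq2 and limma also called 0 members. There were 2 members at an unadjusted p under 0.05, 5% of 40 beside 6.73% of all genes. These were Psma4, higher (log2 fold change 0.19, unadjusted p = 0.00901, adjusted p = 0.740), and Psme1, lower (-0.23, unadjusted p = 0.0397, adjusted p = 0.740).

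Psme1 measured 29.3, 30.1 and 30.3 CPM in the diet group, a tight set below Ctrl libraries 1 and 3 but level with Ctrl library 2. Psmc2 measured 83.0, 82.7 and 74.7 CPM there, below every Ctrl library (log2 fold change -0.10, interval -0.22 to 0.023). Groups without overlap were more frequent than in the other comparisons, at 7 of 40 (17.5%). This stood beside 12.7% of all genes and 15.6% of those with at least 20 FPKM. Psma4 and Psma1 were higher, and Psmc2, Psmd1, Psmd2, Psmd14 and Psma5 were lower. Psmd1 measured 159, 161 and 158 CPM in Ctrl against 152, 154 and 145 in the diet group (log2 fold change -0.082). Psmd2 measured 214, 225 and 213 CPM in Ctrl and 207, 210 and 196 in the diet group. The interferon list had 0 calls by edgeR and 2 of 13 genes at an unadjusted p under 0.05, beside 6.73% of all genes, both lower: Irf1 (log2 fold change -0.40, unadjusted p = 0.0465, adjusted p = 0.740) and H2-D1 (-0.17, unadjusted p = 0.0456). For the diet group against MPTP the list had 6 above and a median of -0.014, and B2m, the light chain of the antigen-presenting molecules, had 0.12. Psmc6 had the second largest fitted difference upward (log2 fold change 0.13, interval -0.0042 to 0.27), at 84.3, 94.4 and 91.5 CPM, and overlapped the controls.

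The intervals limit how large a difference these libraries leave room for. A range from 0.8-fold to its reciprocal, 1.25-fold, chosen after the values were seen, contained the whole 95% interval of 35 of 40 members for MPTP against Ctrl, of 36 for the diet group against MPTP and of 36 for the diet group against Ctrl. In the same order it contained those of 7762, 7519 and 7650 of the 14949 genes tested. Among the 3560 genes with a mean of at least 20 FPKM the counts were 3207, 3166 and 3119. The intervals of Psme1, Psme2, Psme2b, Psmb8 and Psmd9 reached outside that range for MPTP against Ctrl. For Psmb8 that interval ran from -29.3% to 42.5%, so an effect of moderate size on the immunoproteasome gene was not detectable at its 78 to 119 counts.

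Factors that act on the proteasome were described from lists of related genes. Of the regulators of proteasome genes, 9 were tested and 0 called by edgeR in any comparison, with 2, 1 and 0 at an unadjusted p under 0.05 in the 3 comparisons in the order given above, beside 5.36%, 7.78% and 6.73% of all genes tested, shares that apply to the lists below as well. Nfe2l1 differed by less than the spread between libraries, at 411, 445 and 445 CPM in Ctrl, 447, 424 and 424 in MPTP, and 437, 449 and 420 in the diet group (log2 fold changes -0.0066 and 0.013 for MPTP against Ctrl and the diet group against MPTP). Nfe2l2, the main factor of the antioxidant response, differed more. It measured 22.1, 20.8 and 24.4 CPM in Ctrl, 17.3, 18.5 and 16.9 in MPTP, and 19.1, 19.1 and 22.6 in the diet group. All MPTP libraries lay below all libraries of the other groups. Its log2 fold change for MPTP against Ctrl was -0.35 (interval -0.57 to -0.14, unadjusted p = 0.00316, adjusted p = 0.746, edgeR), and 0.21 for the diet group against MPTP (adjusted p = 0.652). Maff, a small partner protein of these factors, was scarce and also lower in MPTP without overlap, at 1.98 ± 0.493 against 3.16 ± 0.416 CPM (log2 fold change -0.67, unadjusted p = 0.0230, adjusted p = 0.893). For MPTP against Ctrl, 33 of all 40 members were below. The 6 members with the antioxidant response element core in their promoters had values on both sides of 0. Psmc6 had a log2 fold change of 0.054, Psme4 0.049, Psmb5 -0.019, Psmd12 -0.047, Psmb6 -0.066 and Psmd9 -0.16, and none was called. Whether the levels of these factors bear on the members was not tested. Vcp, the ATPase that extracts Nfe2l1 from the membrane, had -0.070 for the diet group against Ctrl (adjusted p = 0.860). Ngly1, the enzyme that processes Nfe2l1, measured 21.1, 24.4 and 26.7 CPM in MPTP and 27.4, 28.4 and 27.5 in the diet group (log2 fold change 0.20, unadjusted p = 0.0355, adjusted p = 0.630).

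Of 8 assembly chaperones tested, among them Psmd9, 0 were called by edgeR in any comparison and 0 had an unadjusted p under 0.05. For MPTP against Ctrl 2 were above, with a median of -0.032, and for the diet group against MPTP 6 were above, with a median of 0.047. Pomp, which matures the core, had log2 fold changes of -0.024 and 0.049. Psmg2, an assembly factor of the alpha ring, had 0.11 for MPTP against Ctrl and Psmd5, a chaperone of the ATPases, -0.069. Psmd10, another ATPase chaperone, had -0.13 for the diet group against MPTP. Psmg3, also an assembly factor of the core, had 0.18 for the diet group against Ctrl.

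Of 11 tested factors that bind the particle, 0 were called by edgeR in any comparison and 1 had an unadjusted p under 0.05 in each, and 3, 8 and 6 were above in the 3 comparisons in the order given, with medians of -0.046, 0.062 and 0.0038. The deubiquitinase Usp14 had log2 fold changes of 0.00080 and 0.020 in the first 2, and the ubiquitin receptor Adrm1 -0.048 and -0.036. Fbxo7, a proteasome-binding F-box protein, had 0.15 for the diet group against MPTP, and Txnl1, a redox protein on the cap, -0.076 for MPTP against Ctrl. Uchl5, the other deubiquitinase of the cap, measured 37.6, 35.3 and 36.0 CPM in MPTP and 40.4, 40.8 and 41.2 in the diet group, without overlap (log2 fold change 0.17, unadjusted p = 0.0333, adjusted p = 0.630). Zfand5, which binds and activates the particle, had a log2 fold change of 0.15 for the diet group against Ctrl (unadjusted p = 0.0343, adjusted p = 0.740), and Zfand2a, a stress-induced relative, had -0.16 for MPTP against Ctrl (unadjusted p = 0.0491, adjusted p = 0.904). Of 14 ubiquitin and shuttle genes, 0 were called by edgeR and 0, 1 and 1 had an unadjusted p under 0.05, with medians of -0.013, 0.016 and 0.0052. Ubqln2, a shuttle that carries ubiquitinated proteins to the cap, measured 248, 255 and 251 CPM in MPTP and 222, 235 and 229 in the diet group. Every diet library lay below every MPTP and Ctrl library (log2 fold change -0.14, unadjusted p = 0.00989, adjusted p = 0.609, for the diet group against MPTP). Uba6, a ubiquitin-activating enzyme, had -0.14 and the ubiquitin gene Ubb -0.085 for MPTP against Ctrl.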

How the data were processed

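Bulk RNA was sequenced from 9 libraries, 3 in each group, and titles gave the groups. Per the labels' protocols, a Qiagen column kit was used for extraction and a NEBNext Ultra kit for library construction. The deposited data are 1 table with a raw count and an FPKM value for every gene and library, both made by the authors, per the file headers. The build was GRCm38 (mm10), per the submitters' processing notes. The labels and the table's header name no aligner, counting tool, annotation release or strand setting. A further 10 lines naming no gene were left out.

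Counts were tested with edgeR 4.0.16 in R 4.3.3 (quasi-likelihood, robust, TMM scaling, 1 model over 9 libraries), for the 14949 genes with a mean of at least 0.5 FPKM, with Benjamini-Hochberg adjustment and a threshold of 0.05. CPM uses TMM-scaled library sizes. FPKM was used to compare genes and, with limma 3.58.1 on log2 values, as an alternative; DESeq2 1.42.0, other scalings, filters and left-out libraries were also run. The test was checked on simulated counts. Same-numbered MPTP and diet libraries had positive correlations of their deviations over genes (0.182, 0.107 and 0.113), judged from the data alone. Differently numbered libraries of these groups had -0.15 to 0.041. Between same-numbered Ctrl and MPTP libraries the correlations were -0.0085, -0.15 and 0.047, and between Ctrl and diet libraries 0.078, -0.0073 and 0.0079. The differently numbered MPTP library 1 and Ctrl library 2 had 0.186, so values of this size do not by themselves show pairing. No 2 libraries of a group agreed within sampling noise.

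The members and lists were chosen with earlier results of these data known, so lists are described by counts and medians. Genes were named by rule: in each comparison the 3 members of smallest p in each direction, the 3 of highest and lowest FPKM, the catalytic subunits and activators, and of each other list those of smallest p. A gene that met this rule is not reported here. Psmd11, Psmd2, Psmd14 and other members without overlap were named after their values were seen. Coordinates and coding sequences came from GENCODE M21 (GRCm38), promoters from RefSeq (GRCm38.p6).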

Additional observations from a re-analysis of the deposited data

How the results depend on the processing

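No member was called in any comparison by edgeR, DESeq2 or limma, with other scalings (RLE, upper quartile), without a filter or with a minimum of 1 FPKM, or with any library left out. Counts by direction did depend on the setting. With limma 11, 23 and 15 of 40 members were above in the 3 comparisons, beside 51.5%, 43.5% and 43.8% to 43.9% of all genes. With 1 library left out, 6 to 15, 24 to 31 and 18 to 25 members were above. With the replicate number as a block, pairing same-numbered libraries, 0 members were called in each comparison, and for the diet group against MPTP the median log2 fold change was 0.074 for core, 0.021 for cap and 0.013 for activator genes. Over all genes the block gave 3, 0 and 5 calls against 2, 0 and 0 without it, DESeq2 gave 14, 19 and 16, fits to only the 2 groups compared gave 3, 0 and 4, and limma and the fit without robust moderation 0. Without Ctrl replicate 3 and MPTP replicate 1 together, left out after seeing the data, medians moved to -0.096 (core) and -0.092 (cap) for MPTP against Ctrl, 0.058 (cap) and -0.0051 (activator) for the diet group against MPTP and -0.053 (activator) for the diet group against Ctrl. The activator median for the diet group against MPTP turned to -0.050 and -0.044 with limma on log2 FPKM with 0.1 or 1 added, and its cause was not tested. Without MPTP replicate 2 the medians for MPTP against Ctrl were -0.0077 (core) and -0.014 (cap). Leaving out 1 replicate at a time, medians for core, cap and activator genes ranged from -0.083 to -0.0077, from -0.079 to -0.014 and from -0.063 to 0.032 for MPTP against Ctrl. They ranged from 0.040 to 0.12, from -0.0012 to 0.060 and from -0.0038 to 0.095 for the diet group against MPTP, and from -0.00087 to 0.037, from -0.029 to 0.012 and from -0.053 to 0.075 for the diet group against Ctrl. Single-gene values were followed for the members named by rule, not for all 40, with 66 values in edgeR's fit over all libraries. Under all alternatives, 1316 of their values stayed within their spread and 4 moved. Precision is limited by 3 libraries a group and, for Psmb8 and Psme2b, by few counts.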
